A study of Oryza sativa Japonica Group with 4 samples.

Results

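Transcripts of jasmonate synthesis and signalling were followed in rice roots through 5 genes. AOS1 and LOX2.1 encode enzymes of jasmonate synthesis, JAZ9 and JAZ13 encode repressors of the jasmonate response, and BHLH148 encodes a basic helix-loop-helix transcription factor. The genes were picked by name, with their glutamine differences on these arrays already known. They came from 45 genes with a probe set that were matched by name to the pathway, and from 17905 genes in all. Their differences between treatments are therefore given as a description and are not tested. Each of the 5 genes had 1 probe set.

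Jasmonate is an oxidised fatty acid hormone that plants make within minutes of wounding and that restrains root growth. In plastids a lipoxygenase adds oxygen to linolenic acid, allene oxide synthase and allene oxide cyclase turn the product into oxophytodienoate, and in peroxisomes a reductase and beta-oxidation complete the hormone. Its isoleucine conjugate joins the receptor COI to a JAZ protein, the JAZ protein is degraded, and the transcription factors it held back are released. JAZ genes are themselves switched on by these factors, so their transcripts are widely used as early markers of the response.

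The roots came from seedlings of Oryza sativa Japonica, cultivar TNG67, germinated for 3 days in the dark and grown for 2 weeks in hydroponic solution from which NH4NO3 had been omitted. At 17 days of age all seedlings were moved for 30 min, either to 2.5 mM glutamine (the +Gln roots) or to fresh solution without nitrogen (the −N roots). Both groups were thus starved of nitrogen beforehand and both were handled. Each group held 2 biological repeats, numbered 1 and 2, each measured on 1 GeneChip Rice Genome Array, which gives 1 intensity per probe set. The sources used here do not say whether equal numbers mark a shared culture or day. Whole roots were extracted, so fewer cells of a type and less RNA per cell cannot be told apart.

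The median intensity over 57258 probe sets lay between 19.7 and 22.2 on the 4 arrays. Gapdh control intensity at the 3′ end over that at the 5′ end, a measure of RNA integrity, was 6.20 and 4.43 in the +Gln arrays and 6.94 and 4.32 in the −N arrays, for numbers 1 and 2 in that order, so it went with the number and not with the treatment. Of 10 root markers 8 were matched, and their summed intensity was 8749 and 11248 in +Gln roots and 8590 and 11016 in −N roots. Most of this sum was Lsi1, a silicon transporter of roots, with 7279 and 8999 in +Gln roots and 7321 and 8614 in −N roots. The other root markers were lower, down to YSL15 at 4.7 to 9.5. OsCASP1 had 98.2 and 97.0 in +Gln roots and 60.1 and 215 in −N roots. Of 9 markers of green tissue 7 were matched, with sums of 14983 and 15726 in +Gln roots and 12231 and 17553 in −N roots. CAB2R, a chlorophyll-binding protein gene, was bright on all arrays at 8606 to 10546 and made up most of these sums. RBCS1, of the same list, was at 4.0 to 4.3. The 5 matched of 6 seed markers summed to between 1147 and 1490. What part tissue make-up had in the results below was not tested. With 2 arrays per group, their number limits the precision of each value, and an exact two-sided permutation test cannot go below p = 0.333.

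All 5 genes were higher in +Gln roots than in −N roots, in both arrays of the group and within both numbers. JAZ9 stood furthest apart at 3.06-fold, followed by JAZ13 at 2.36-fold and BHLH148 at 2.18-fold. The 2 synthesis genes were at 1.94-fold for LOX2.1 and 1.93-fold for AOS1. For comparison, 10.1% of all genes had both +Gln arrays above both −N arrays, and 0.737% did so with at least 2-fold between the means, as 3 of these 5 did. Nothing is read from these counts, because the genes were chosen on this contrast.

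AOS1 (LOC4334233), the allene oxide synthase gene also listed as PRECOCIOUS, had intensities of 455.5 and 476 in +Gln roots and 273 and 213 in −N roots, for numbers 1 and 2. The +Gln arrays lay close together and both −N arrays below them, number 2 lowest. On the log2 scale AOS1 averaged 8.86 ± 0.04 in +Gln roots and 7.91 ± 0.26 in −N roots (SD, n = 2 each), a difference of 0.95 (SE 0.23). LOX2.1 (LOC4345993), a gene for a chloroplast lipoxygenase that is also listed as CM-LOX1, was dim, at 48.4 and 39.3 in +Gln roots and 27.5 and 18.4 in −N roots. In either group its array numbered 2 was the lower one, and the groups did not overlap. Its mean log2 intensity was 5.45 ± 0.21 in +Gln roots and 4.49 ± 0.41 in −N roots (SD, n = 2 each), which gave a difference of 0.96 (SE 0.29). How far this probe set lies above background is unknown, since no detection calls were used.

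JAZ9 (LOC4331832), a repressor reported in rice to act in salt tolerance, had 844 and 774 in +Gln roots and 429 and 163 in −N roots. The +Gln arrays nearly coincided, while the −N array numbered 2 lay far below the one numbered 1. Mean log2 intensities were 9.66 ± 0.09 in +Gln roots and 8.05 ± 0.99 in −N roots (SD, n = 2 each), with a difference of 1.61 (SE 0.47). JAZ9 is used here for the gene also named TIFY11A. The gene table gives the same synonym to a second gene, TIFY10C, which is called JAZ8 below. JAZ13 (LOC4348531), also named TIFY11E, had 631 and 517 in +Gln roots and 325 and 181 in −N roots. Here too the −N arrays lay further apart than the +Gln arrays. JAZ13 averaged 9.16 ± 0.20 in +Gln roots and 7.92 ± 0.60 in −N roots on the log2 scale (SD, n = 2 each), a difference of 1.24 (SE 0.34).

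BHLH148 (LOC4334060), whose product has been reported in rice to bind a JAZ protein and to raise drought tolerance when overproduced, had 339 and 368 in +Gln roots and 196 and 133.5 in −N roots. The +Gln arrays were again the closer pair and the −N array numbered 2 the lowest of the 4. Its log2 intensity was 8.46 ± 0.08 in +Gln roots and 7.34 ± 0.39 in −N roots (SD, n = 2 each), and the difference was 1.13 (SE 0.27).

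**Figure D1:**
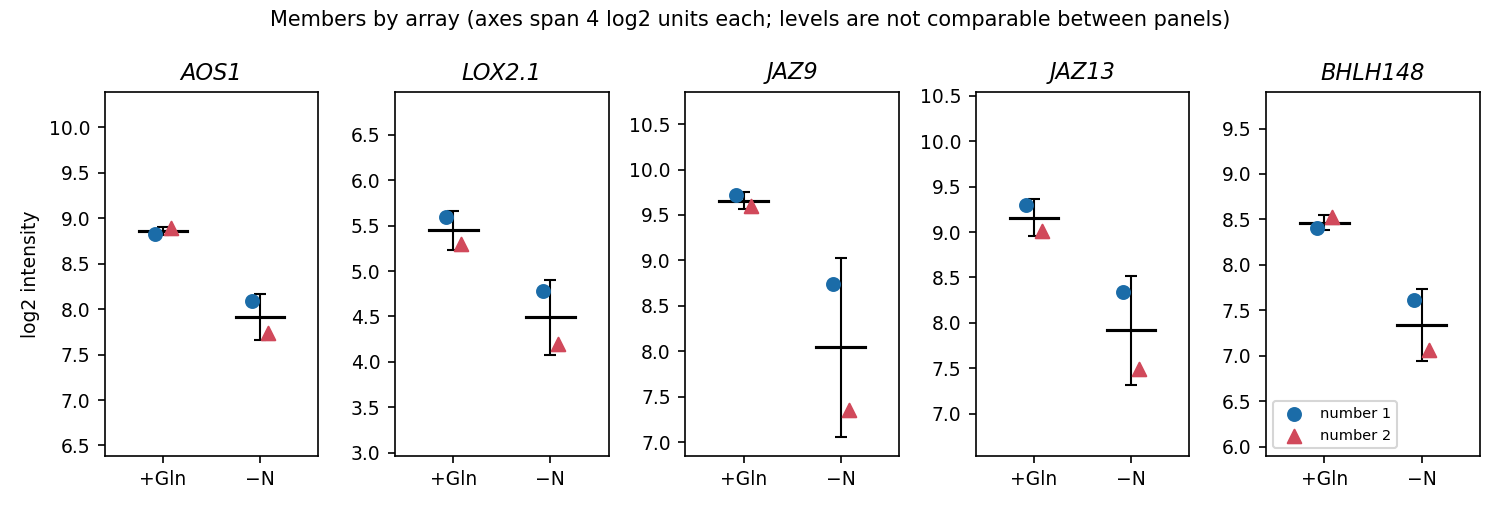
The log2 intensity (y axis) of each of the 5 genes is plotted for +Gln roots (left) and −N roots (right), with a circle for number 1, a triangle for number 2, a bar at the group mean and whiskers of 1 SD (n = 2). In every panel both +Gln arrays lie above both −N arrays, and the −N array numbered 2 is the lowest.

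Within number 1 the 5 differences were nearly equal. They ran from 0.74 for AOS1 through 0.79 for BHLH148, 0.82 for LOX2.1 and 0.96 for JAZ13 to 0.98 for JAZ9 on the log2 scale. Within number 2 they spread from 1.09 for LOX2.1 and 1.16 for AOS1 to 1.46 for BHLH148, 1.52 for JAZ13 and 2.25 for JAZ9. The genes thus lay further apart within number 2, and for all 5 the difference was larger there.

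The synthesis pair averaged 0.95 and the repressor pair 1.42, so the synthesis genes differed by 0.47 less than the repressors. That gap was -0.19 within number 1 and -0.75 within number 2. BHLH148 lay between the pairs when both numbers were averaged, at 1.13. Within number 1 it was at 0.79 against 0.78 for the synthesis pair and 0.97 for the repressor pair, and within number 2 at 1.46 against 1.13 and 1.88. The gap between synthesis genes and repressors kept its sign in both numbers, but its size in number 1 was below the standard error of each of the 5 genes.

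The unequal size went with the −N arrays. The +Gln array numbered 2 minus that numbered 1 was between -0.30 for LOX2.1 and 0.12 for BHLH148 on the log2 scale. Between the −N arrays the same subtraction gave -1.39 for JAZ9, -0.85 for JAZ13, -0.58 for LOX2.1, -0.56 for BHLH148 and -0.36 for AOS1. Over all genes the −N array numbered 2 tended the other way, with a median change of 0.23, and 30.0% of genes were lower in it than in number 1. An absolute gap at least as wide as that of JAZ9 was found between the −N arrays for 2.54% of genes. The Gapdh ratio and the green marker sums given above differed between the same 2 arrays. For numbers 1 and 2 the Gapdh ratio was 6.94 and 4.32 in −N arrays, and it also differed between the +Gln arrays, at 6.20 and 4.43. The part of the ratio and of the green marker sums in this gap was not tested.

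**Figure D2:**
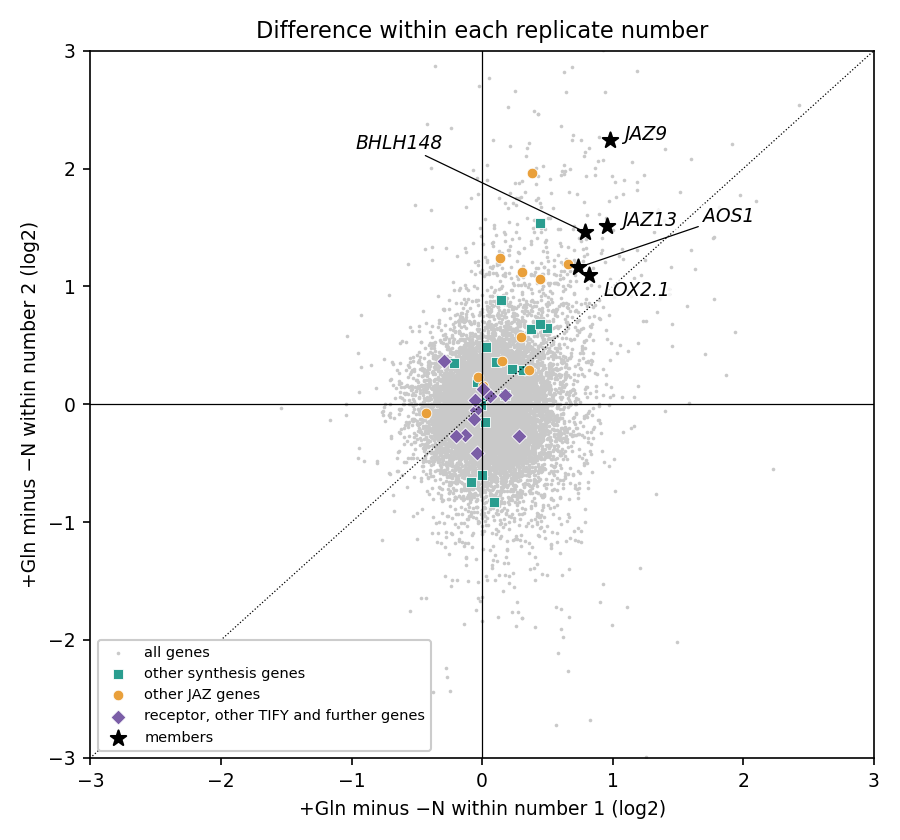
Each point is a gene, with the +Gln minus −N difference in log2 intensity within number 1 on the x axis and within number 2 on the y axis, and 14 genes lie beyond the axes at 3 log2 units. The 5 genes (stars) lie above the dotted line of equality, close together along x at 0.74 to 0.98 and spread along y from 1.09 to 2.25.

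The size of the differences depended on single arrays, while their direction could not turn, since the groups of these genes do not overlap. Without the −N array numbered 2 the log2 differences were 0.91 for JAZ9, 0.81 for JAZ13, 0.85 for BHLH148, 0.77 for AOS1 and 0.67 for LOX2.1, so that of JAZ9 shrank more than the others. Without the −N array numbered 1 they were 2.31, 1.66, 1.40, 1.13 and 1.25 for the same genes. Leaving out a +Gln array moved them less, to between 0.81 for LOX2.1 and 1.67 for JAZ9.

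**Figure D3:**
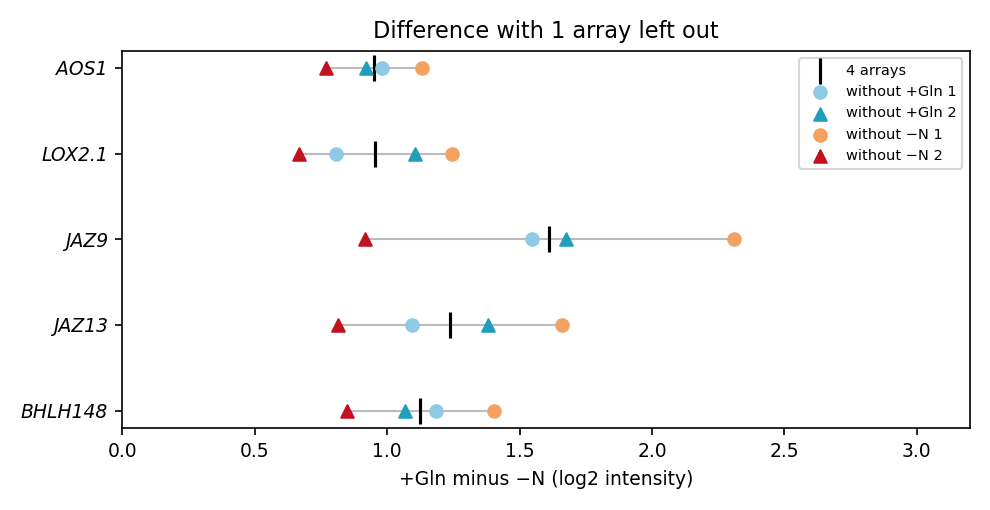
For each of the 5 genes the +Gln minus −N difference in log2 intensity (x axis) is shown with all 4 arrays (black bar) and with each array left out in turn (circles for number 1, triangles for number 2). Omission of the −N array numbered 2 gave the lowest value for each gene and brought JAZ9 to 0.91, close to the other members.

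The other genes matched by name to the pathway ask whether these members stood alone. None of the 40 passed limma's test with Benjamini-Hochberg adjustment over all 57258 probe sets, in which the adjusted p was 1 for each of them and 0 probe sets (0.0%) were called in either direction. At an unadjusted p under 0.05 there were 2, JAZ5 and LOX1.1, both higher in +Gln roots, against 453 higher (0.791%) and 52 lower (0.0908%) of all probe sets. In a fit with 1 probe set per gene, 285 of 17905 genes were under it, again 2 of the 40 among them. The number among the 40 was 7 without the −N array numbered 1 and 0 without any other single array. Without overlap between groups 9 of the 40 were higher in +Gln roots (22.5%) and 5 lower (12.5%), where 10.1% and 9.03% of all genes were. They had a median log2 difference of 0.09, and of 0.08 and 0.21 when only the arrays numbered 1 or 2 were used. For all genes the same medians were -0.01, 0.02 and -0.04.

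Among the 11 other JAZ genes the median log2 difference was 0.44, or 0.30 in the arrays numbered 1 and 0.57 in those numbered 2. None passed the test. Without overlap 4 were higher (36.4%) and 1 was lower (9.09%), against 10.1% and 9.03% of all genes. Within both numbers 9 were above 0, as were 24.9% of all genes. JAZ5, also named TIFY9, had 214 and 305 in +Gln roots and 164 and 78.5 in −N roots, a 2.25-fold difference (log2 difference 1.17, SE 0.41). Its −N array numbered 2 was the lowest of the 4, and JAZ5 differed by 0.38 in the arrays numbered 1 and by 1.96 in those numbered 2. JAZ5 differed by 0.64 without the −N array numbered 2.

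The members JAZ9 and JAZ13 belong with JAZ10, JAZ11 and JAZ12 to the TIFY11 subgroup, a grouping by gene name that was made after the values were seen. JAZ10 had 2860 and 1869 in +Gln roots and 1810 and 821 in −N roots. JAZ12 had 2077 and 1737 in +Gln roots and 1527 and 831 in −N roots. For both genes the groups were separate, for JAZ10 by a narrow margin, and number 2 was the lower array of each group. JAZ11 overlapped, with 1416 and 1102 in +Gln roots and 1147 and 506 in −N roots. The log2 differences of these 3 genes were 0.92 (SE 0.45), 0.75 (SE 0.35) and 0.71 (SE 0.43) for JAZ10, JAZ12 and JAZ11 in that order. Without the −N array numbered 2 they were 0.35, 0.32 and 0.12 in the same order. The 3 genes were above 0 within both numbers, where 24.9% of all genes were, and JAZ9 and JAZ13 add nothing to this count because they were chosen on the contrast.

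Genes of the subgroup also lie near each other. In the gene table JAZ9 and JAZ11 were direct neighbours, JAZ10 followed with 1 protein-coding gene between it and JAZ9, and 2 such genes lay between JAZ13 and JAZ12. The JAZ10 value came from a probe set with the suffix _s_at, a type that can match several transcripts, and the other JAZ10 probe set differed by 1.13 (SE 0.48). Signal of a gene and of a close relative that binds the same probes cannot be told apart here.

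Of the remaining JAZ genes, JAZ6 was higher without overlap, with 2557 and 2971 in +Gln roots and 2079 and 1995 in −N roots (log2 difference 0.44, SE 0.21). JAZ8 had 770 and 551 in +Gln roots and 700 and 234 in −N roots, and its groups overlapped (log2 difference 0.69, SE 0.55). Without the −N array numbered 2 JAZ8 differed by -0.10. JAZ3 differed by 0.33 (SE 0.26), JAZ7 by 0.26 (SE 0.24), JAZ1 by 0.10 (SE 0.23) and JAZ4 by 0.08 (SE 0.27). JAZ1, which acts in rice flower development under the name EG2, had 9774 and 9364 in +Gln roots and 9970 and 7961 in −N roots. JAZ2 was the single JAZ gene below 0, at -0.25 (SE 0.22), and its intensities were all between 4.9 and 6.6.

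**Figure D4:**
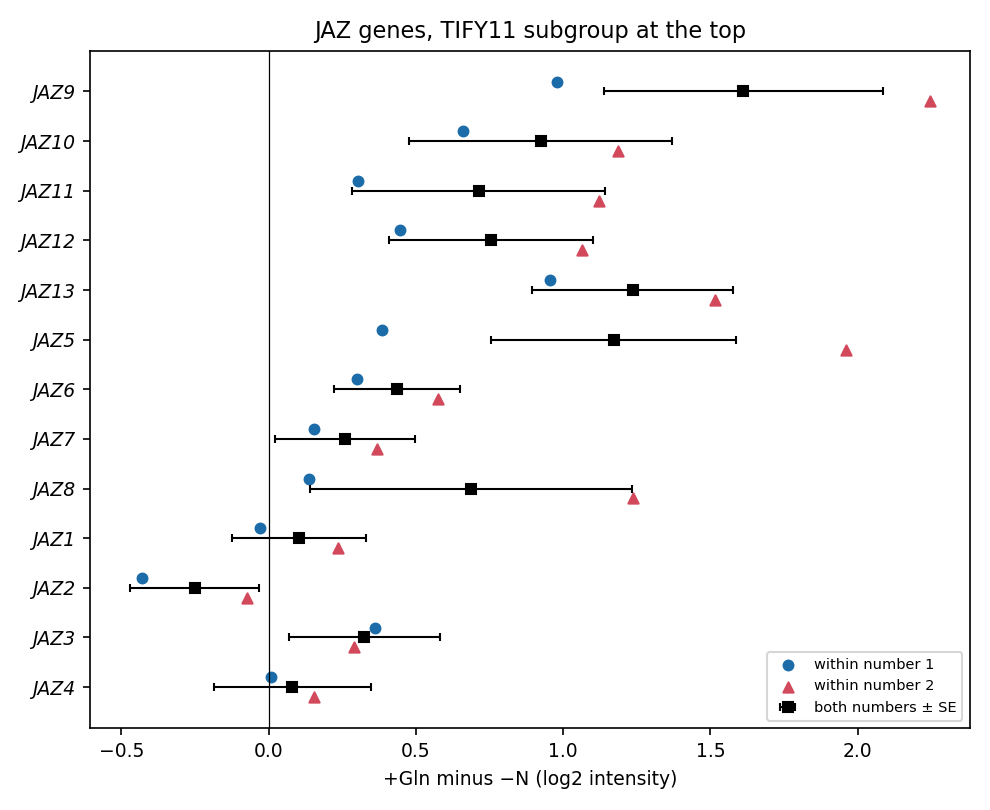
The +Gln minus −N difference in log2 intensity (x axis) is shown for the 13 JAZ genes, with squares and bars for both numbers and the standard error, circles for number 1 and triangles for number 2. In 12 of the 13 the value within number 2 lies to the right of that within number 1, and JAZ3 is the exception.

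Proteins that share the TIFY motif but stand outside the JAZ group, and the adaptor NINJA that links JAZ proteins to a corepressor, were measured by 5 genes. These had a median of 0.04 on the log2 scale, and none passed the test. Without overlap none of the 5 was higher and 1 was lower, where 10.1% and 9.03% of all genes were. With 5 genes these counts cannot be told from those shares. NINJA1 differed by 0.07 (SE 0.23), TIFY2B by 0.06 (SE 0.25), TIFY8 by 0.04 (SE 0.30), TIFY1A by -0.01 (SE 0.21) and TIFY2A by -0.23 (SE 0.22).

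Other genes named after the enzyme families of jasmonate synthesis were uneven. They were matched by name, and whether each takes part in making jasmonate was not checked. Of 18 that were matched and measured, none passed the test. Without overlap 5 were higher (27.8%) and 1 lower (5.56%), against 10.1% and 9.03% of all genes, and the median log2 difference was 0.18, or 0.10 in the arrays numbered 1 and 0.30 in those numbered 2. CM-LOX2, the direct neighbour of LOX2.1 in the gene table, had 137 and 130 in +Gln roots and 101 and 44.5 in −N roots. The −N array numbered 2 was again the lowest. CM-LOX2 had a log2 difference of 0.99 (SE 0.42), made up of 0.44 in the arrays numbered 1 and 1.54 in those numbered 2, and of 0.40 without the −N array numbered 2. LOX1.1 had 433 and 392 in +Gln roots and 307 and 250 in −N roots, without overlap, and the difference was of like size in both numbers, at 0.50 and 0.65. LOX5 and LOX3 differed by 0.30 (SE 0.27) and 0.05 (SE 0.22). All 5 lipoxygenase genes other than LOX2.1 were above 0 within both numbers, as were 24.9% of all genes. LOX3 was so by only 0.03 and 0.07, and for 3 of the 5, LOX3 and LOX5 among them, the groups overlapped.

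The paralogues of AOS1 went in both directions. AOS2 had 160 and 238 in +Gln roots and 145 and 129 in −N roots, a log2 difference of 0.51 (SE 0.27) that was 0.14 within number 1, 0.89 within number 2 and 0.23 without the +Gln array numbered 2. AOS4 had 466 and 702 in +Gln roots and 437 and 1249 in −N roots, so that its −N array numbered 2 was the highest of the 4. AOS4 differed by -0.37 (SE 0.54) on the log2 scale, by 0.09 between the arrays numbered 1 and by -0.83 between those numbered 2. Without the −N array numbered 2 the value was 0.39. AOS3 was at 7.8 to 13.3 on all arrays (log2 difference -0.30, SE 0.32). None of the paralogues passed the test, and the differences between paralogues were not tested.

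Allene oxide cyclase, whose loss in rice abolishes jasmonate, is encoded by AOC, which had 3586.5 and 3595 in +Gln roots and 3053 and 2915 in −N roots. The arrays of each group lay close together and the groups were separate, with a log2 difference of 0.27 (SE 0.20). OsOPR1, a reductase gene of the same family as the jasmonate-forming enzyme, had 958 and 1006 in +Gln roots and 740 and 645 in −N roots (log2 difference 0.51, SE 0.21). OsOPR7, the reductase assigned to jasmonate synthesis in rice, differed by 0.13 (SE 0.26), OsOPR5 by 0.26 (SE 0.27) and OsOPR8 by -0.01 (SE 0.21). Of the 7 measured reductase genes 1 was higher without overlap (14.3%) and 1 lower (14.3%), against 10.1% and 9.03% of all genes. The lower one was OsOPR12, named after its value was seen, at 6.7 to 10.6 on all arrays. The gene matched by the name DAD1, which in Arabidopsis is that of a fatty acid-releasing lipase, differed by -0.06 (SE 0.22). It is also listed as DAD-1, and whether it encodes that lipase was not checked. It is counted among the 18 synthesis genes all the same. The beta-oxidation gene MFP differed by 0.07 (SE 0.28).

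Genes that act between hormone and repressor were close to 0. JAR1, whose enzyme joins jasmonate to isoleucine, differed by 0.13 (SE 0.25) on the log2 scale. The receptor genes COI1A, COI1B and COI2 differed by -0.05 (SE 0.22), -0.19 (SE 0.22) and -0.09 (SE 0.21), and all 3 were below 0 within both numbers, as were 25.7% of all genes. COI2 was lower without overlap, at 618 and 636 in +Gln roots and 644 and 694 in −N roots, and none of the 3 passed the test. JAMYB, a MYB gene named for its response to jasmonate, differed by 0.01 (SE 0.27). MYBS3, a MYB gene of sugar and cold responses that the list took in through its synonym myb30, differed by -0.24 (SE 0.21).

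**Figure D5:**
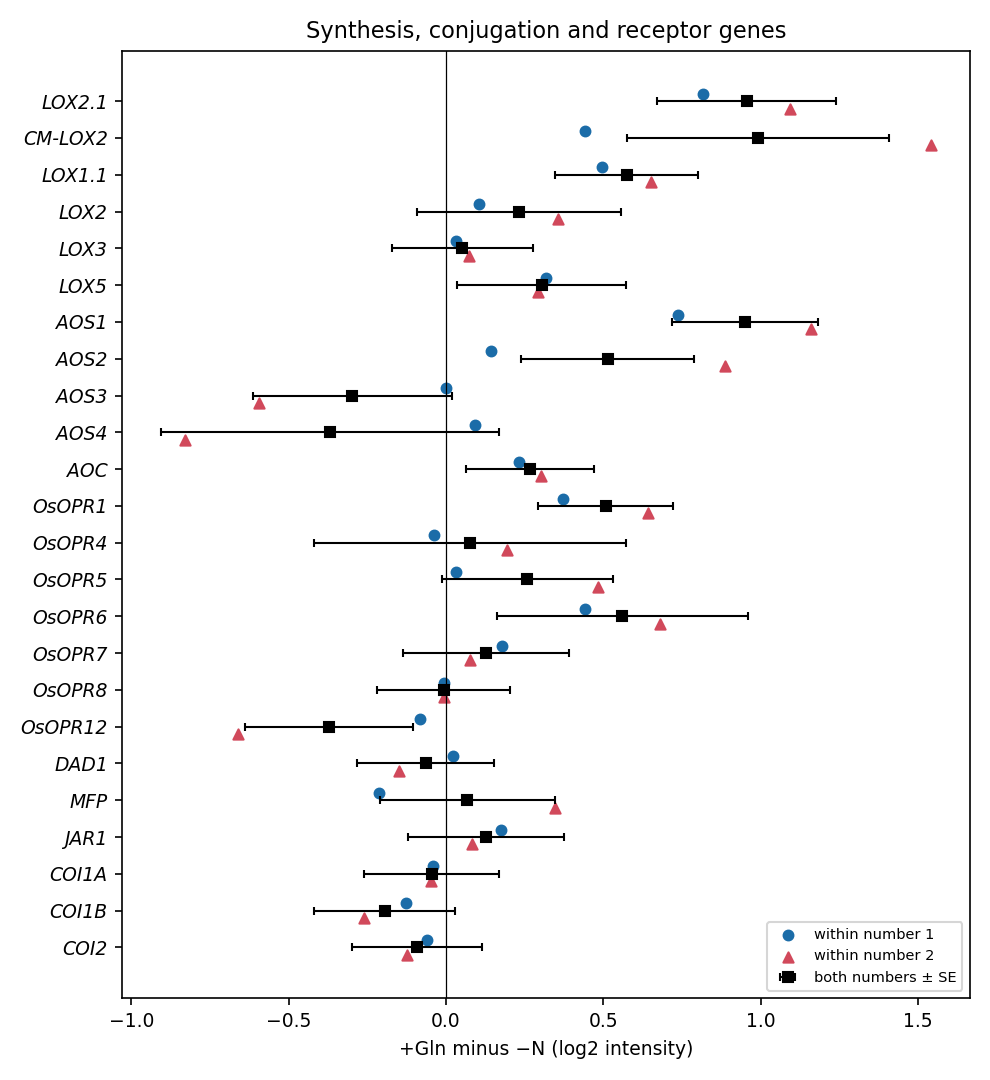
The +Gln minus −N difference in log2 intensity (x axis) is shown for 24 genes matched by name to synthesis, conjugation and reception. Squares and bars give both numbers and the standard error, circles number 1 and triangles number 2. LOX2.1 and AOS1 reach 0.96 and 0.95, CM-LOX2 reaches 0.99 with its 2 numbers further apart, and the receptor genes lie between -0.19 and -0.05.

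The 5 members were also compared with each other and with 2454 other named genes by the root mean square difference between their log2 profiles over the 4 arrays, each centred on its own mean. The closest pair of members was AOS1 and BHLH148, at 0.11, and the most distant AOS1 and JAZ9, at 0.50. JAZ9 and JAZ13 were 0.28 apart, further than either BHLH148 or LOX2.1 was from JAZ13, at 0.18 and 0.17. A synthesis gene and the bHLH gene thus formed the closest pair, and JAZ9 lay between 0.28 and 0.50 from the others.

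Outside the members, AOS1 was nearest to GH3-8, an auxin-conjugating enzyme gene, at 0.07, then to GRXS5, a glutaredoxin gene, and LTR1, both at 0.10. LOX2.1 was nearest to the trehalose phosphatase gene OsTPP2 at 0.09, to GRXS5 at 0.11 and to the expansin gene EXP5 at 0.13. For BHLH148 the nearest were EXP5 at 0.09, the stress-associated zinc finger gene OsSAP17 at 0.13 and OsWRKY71, a WRKY factor of defence, at 0.15. JAZ9 was nearest to a gene named only as chitinase at 0.13, to OsPHT3 at 0.16 and to ITPK4, an inositol phosphate kinase gene, at 0.16. JAZ13 was nearest to a second chitinase gene, Chib3H-h, at 0.11, to the first at 0.17 and to OsSAP17 at 0.18. None of the other jasmonate pathway genes was among these nearest genes. At most 40 of the 2454 named genes belong to that list, so nothing is read from their absence. These distances rest on 4 arrays and are a description.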

How the data were processed

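Root RNA of 4 samples, 2 with glutamine and 2 without nitrogen, was measured on GeneChip Rice Genome Arrays. RNA was extracted with phenol and 10 ug of it was made into biotinylated cRNA, per the labels' protocols. The authors deposited 1 linear intensity per probe set and array. The submitters' processing notes list GCOS and RMA without version or role, and how arrays were scaled to each other is not stated there. From these values log2 was taken after a floor of 1, which raised 0 values, with no further normalization, and 123 control probe sets were left out. The platform annotation gives 1 gene for 22436 probe sets, and these were named through the RefSeq genes of assembly ASM3414082v1. The files name no build, so no coordinates are given. Of 49 jasmonate names looked for, 4 (LOX4, OsOPR3, TIFY1B and RSS3) had no probe set. MYC2, RERJ1 and hydroperoxide lyase genes found no match by name and were not used here.

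The +Gln and −N groups were compared by limma 3.58.1 in R 4.3.3 (lmFit, eBayes, group alone in the design, two-sided), with Benjamini-Hochberg adjustment over 57258 probe sets and a threshold of 0.05. Standard errors are those of this fit. The script was tested on simulated data with less noise than a typical gene here and a larger shift than any member's. That checks the code and not its power in these data. A gene with several probe sets is represented by its brightest one on average. Of each role up to 4 genes with the highest mean are named, with all JAZ, TIFY and NINJA genes and the 3 nearest genes per member. The members and lists were chosen with earlier results of these data known. The labels call the repeats biological and do not say whether they came from separate cultures, so the spread between them may be technical. Alternatives were the replicate number as a further term, another variance prior, median centring, quantile normalization, a floor at the 20th percentile, omission of dim probe sets (mean below the median) and of each array, 1 probe set per gene and all probe sets of a gene. Figures were drawn with matplotlib 3.10.9.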

Additional observations from a re-analysis of the deposited data

How the results depend on the processing

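The members' groups do not overlap, so omission of an array could not turn their direction, and with 2 arrays a group it moves a difference by less than 1 SD by construction. It gave 0.67 to 1.25 for LOX2.1, 0.77 to 1.13 for AOS1, 0.91 to 2.31 for JAZ9, 0.81 to 1.66 for JAZ13, 0.85 to 1.40 for BHLH148 and -0.80 to -0.15 for synthesis genes minus repressors. The same-numbered arrays deviated together (r = 0.67 across probe sets between the groups' differences of number 1 and number 2), but the labels do not say that they are paired. With the replicate block limma called 0 probe sets, as without it, and 2480 instead of 505 had an unadjusted p under 0.05, among them 9 instead of 2 of the 40 other genes (13 with the trended and robust prior as well). With the replicate block and a trended and robust prior together 24 were called higher and 0 lower, of which 0 were members and 0 were other jasmonate genes (lowest adjusted p among those 0.161, limma). None of the 40 other genes was called in any alternative run. Their numbers without overlap rose by construction when 1 array was omitted, to between 14 and 22 higher and between 8 and 9 lower, and their median difference lay between 0.023 and 0.27. With a floor at the 20th percentile 3 were lower without overlap, and 3 were lower among the 34 genes left after dim probe sets were omitted. Omission of an array moved the median difference of all genes from -0.01 to between -0.13 and 0.11. Signal over background could not be judged, which limits LOX2.1, AOS3, JAZ2 and TIFY8 most.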

Other observations

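Some pathway genes had several probe sets that differed among themselves. CM-LOX2 differed by 0.99 on its brightest probe set and by 0.32 and 0.34 on its others, whose intensities were 5.8 to 7.7 and 8.1 to 15.0 in +Gln roots and 4.6 to 6.2 and 8.5 to 8.9 in −N roots. MYBS3 differed by -0.24 on one probe set and by 0.01 on the other. OsOPR5 differed by 0.26 and -0.04, JAZ4 by 0.08 and 0.06, and NINJA1 by 0.07 and 0.20. JAZ10 was the gene with several probe sets on which all were at least 0.92.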
